A study of Mus musculus with 21 samples.

Results

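The mitochondrial ribosomal protein genes were the 77 genes of the deposited expression table whose symbols have the form Mrpl or Mrps followed by a number and at most 1 letter, of 20900 genes in all. Of these, 48 carried a large-subunit symbol (Mrpl) and 29 a small-subunit symbol (Mrps). The rule reads symbols only, but the family was chosen with earlier results of these data known. They were followed in poly(A) RNA sequencing of E14 cells, an embryonic stem cell line of the 129 mouse strain, in 7 groups of 3 libraries. The groups were an untreated 0 h control and cells kept for 2, 4 or 8 h in medium with a small molecule at 1 µM, which was either BMH-21 or CX-5461. Both compounds are known to inhibit RNA polymerase I, which makes the large ribosomal RNAs of the cytosolic ribosome. All groups were grown in serum with leukaemia inhibitory factor, all came from 1 cell line, and both inhibitors were compared with the same 3 control libraries. The labels give no vehicle control and no later untreated time point, and they do not say whether the 3 libraries of a group came from separate cultures, so p-values measure the spread between these libraries, which may be technical.

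The mitochondrial ribosome makes the few proteins encoded by mitochondrial DNA, which are core subunits of the respiratory chain and ATP synthase. Its ribosomal RNAs are transcribed inside the mitochondrion by a separate polymerase, whereas all of its proteins are encoded in the nucleus, transcribed by RNA polymerase II and imported. Some of these proteins have a counterpart in the bacterial ribosome, and the others are found in mitochondrial ribosomes but not in bacterial ones. By this textbook division, 30 of the 77 genes encode bacterial-type proteins of the large subunit, 20 mitochondria-specific proteins of the large subunit, 16 bacterial-type proteins of the small subunit and 10 mitochondria-specific proteins of the small subunit. Symbols do not always follow the subunit, since Mrps30 and Mrps18a encode proteins that are located in the large subunit. The last gene, Mrps36, carries a family symbol, but its product is known as a component of the 2-oxoglutarate dehydrogenase complex.

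In the deposited values, nearly the whole family was lower after 8 h of BMH-21 than in the control, beside 56.9% of all tested genes. The median fall was 0.71 on the log2 scale, beside a median fall of 0.40 over all genes tested. On this scale the transcripts of Mrps18b, Mrpl12, Mrpl40 and Mrps12 were at 0.332 to 0.357 times their control level. The members' median fall was smaller on the other scales used below. With CX-5461 67 members were lower at 4 h, beside 51.2% of all tested genes, while at 8 h the members' deposited values stood closer to the control. Relative to all genes they did not return. With each library centred on its median over all tested genes, 57 members were lower at 4 h and 69 at 8 h, beside 45.7% and 44.7% of all genes. Mrps6 rose with both inhibitors, and Mrpl41 was higher at 8 h with both.

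The 300 bases around the start of 8 members are shown here because these genes gave the 3 largest falls at 4 or 8 h of BMH-21 or were the rises. Promoters, 250 bases before to 50 bases after an annotated start, were taken from RefSeq (GRCm38.p6), where 68 of the 77 members had an entry. Each was searched on both strands for 4 motifs of factors known at genes for mitochondrial proteins or growth, namely that of NRF1, the ETS family member GABPA (CCGGAAG), YY1 (AAGATGGCG) and the E-box (CACGTG). The first group gives the genes with the largest falls. Each line runs 5′ to 3′ on the gene's strand, the RefSeq start is base 251, and capitals mark a motif match on either strand. RefSeq starts can differ from the GENCODE gene positions given further below. The window of Mrps18b lies wholly outside its GENCODE gene (chr17:35910379-35916389).
Mrps18b (chr17:35916391-35916690, minus strand): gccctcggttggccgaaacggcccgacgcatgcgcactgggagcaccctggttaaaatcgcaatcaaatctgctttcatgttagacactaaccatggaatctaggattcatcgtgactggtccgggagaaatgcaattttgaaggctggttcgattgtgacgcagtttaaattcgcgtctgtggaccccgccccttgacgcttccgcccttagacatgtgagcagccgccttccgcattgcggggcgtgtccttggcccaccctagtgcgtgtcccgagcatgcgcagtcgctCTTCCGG
Mrpl12 (chr11:120484387-120484686, plus strand): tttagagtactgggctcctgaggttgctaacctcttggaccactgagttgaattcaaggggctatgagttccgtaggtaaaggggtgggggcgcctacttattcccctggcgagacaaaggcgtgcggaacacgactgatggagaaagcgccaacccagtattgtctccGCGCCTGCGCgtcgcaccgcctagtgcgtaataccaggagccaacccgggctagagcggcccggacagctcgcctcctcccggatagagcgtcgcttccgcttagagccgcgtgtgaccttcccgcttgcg
Mrpl40 (chr16:18876588-18876887, minus strand): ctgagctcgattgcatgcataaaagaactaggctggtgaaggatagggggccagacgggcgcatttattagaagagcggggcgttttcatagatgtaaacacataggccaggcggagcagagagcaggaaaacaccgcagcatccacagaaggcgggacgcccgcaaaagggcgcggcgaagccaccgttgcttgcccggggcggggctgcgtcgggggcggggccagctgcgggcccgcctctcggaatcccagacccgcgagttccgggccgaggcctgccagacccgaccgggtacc
Mrps12 (chr7:28741772-28742071, minus strand): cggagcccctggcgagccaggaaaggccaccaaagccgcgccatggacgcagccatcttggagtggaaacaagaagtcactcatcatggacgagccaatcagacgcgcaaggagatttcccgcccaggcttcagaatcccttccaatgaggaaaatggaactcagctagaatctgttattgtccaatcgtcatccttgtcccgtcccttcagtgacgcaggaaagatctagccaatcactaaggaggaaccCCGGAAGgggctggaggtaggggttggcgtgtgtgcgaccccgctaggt
Mrpl17 (chr7:105811038-105811337, minus strand): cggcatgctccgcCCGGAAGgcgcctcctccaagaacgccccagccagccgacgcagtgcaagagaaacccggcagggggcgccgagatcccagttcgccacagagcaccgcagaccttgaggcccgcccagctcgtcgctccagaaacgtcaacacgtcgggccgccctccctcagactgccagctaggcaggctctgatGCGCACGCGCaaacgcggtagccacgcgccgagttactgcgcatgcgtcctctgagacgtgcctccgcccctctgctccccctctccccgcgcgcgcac

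The capitals mark an ETS match on the reverse strand in Mrps18b, an NRF1 match in Mrpl12, an ETS match next to the start in Mrps12, and an ETS and a reverse-strand NRF1 match in Mrpl17, while the window of Mrpl40 held none of the 4 motifs. The second group gives the promoters of the 3 members that were higher in at least 1 comparison with the control on all 3 scales used below, Mrps6, Mrpl41 and Mrpl16. None of the 4 motifs was found in these windows either.
Mrps6 (chr16:92058086-92058385, plus strand): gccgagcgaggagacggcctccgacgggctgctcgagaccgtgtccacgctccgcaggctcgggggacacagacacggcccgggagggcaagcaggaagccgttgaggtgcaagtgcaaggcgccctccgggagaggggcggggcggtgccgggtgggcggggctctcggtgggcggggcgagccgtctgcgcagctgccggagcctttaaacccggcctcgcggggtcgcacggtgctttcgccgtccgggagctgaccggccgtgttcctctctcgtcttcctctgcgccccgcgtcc
Mrpl41 (chr2:24975049-24975348, minus strand): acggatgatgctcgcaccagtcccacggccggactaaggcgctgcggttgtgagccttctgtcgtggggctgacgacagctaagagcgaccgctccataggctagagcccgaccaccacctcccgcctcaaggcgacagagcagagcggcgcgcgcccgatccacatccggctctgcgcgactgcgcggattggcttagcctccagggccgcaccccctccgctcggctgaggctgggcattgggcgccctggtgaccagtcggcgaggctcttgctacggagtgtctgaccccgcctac
Mrpl16 (chr19:11770165-11770464, plus strand): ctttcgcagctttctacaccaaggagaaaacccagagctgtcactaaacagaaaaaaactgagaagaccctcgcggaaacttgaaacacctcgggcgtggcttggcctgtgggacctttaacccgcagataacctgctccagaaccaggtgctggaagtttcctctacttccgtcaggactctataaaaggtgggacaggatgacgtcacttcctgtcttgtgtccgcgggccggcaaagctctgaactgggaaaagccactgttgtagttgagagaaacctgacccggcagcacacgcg

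Over the 68 members with a promoter entry, 36.8% held the ETS motif, against 18.4% of the 11000 tested genes with an entry. The NRF1 motif was in 19.1% of the members' promoters and in 10.6% of all, and the YY1 motif in 11.8% and 3.2%. The E-box, bound by MYC and related factors, was in 7.4% of the members' promoters and in 11.3% of all. At least 1 of the 4 was present in 61.8% of the members with a promoter and in 36.3% of all, and no ETS match overlapped a YY1 match. Of 60 cytosolic ribosomal protein genes with an entry, 40.0% held the ETS motif, 8.3% NRF1, 5.0% YY1 and 56.7% at least 1 of the 4. For 60 nuclear oxidative phosphorylation genes the shares were 26.7%, 26.7%, 11.7% and 60.0%. Shares above those of all genes were thus not particular to the members. With the 4 motifs pooled, the median log2 change after 8 h of BMH-21 was -0.72 for the 42 members with a motif and -0.66 for the 26 without. After 8 h of CX-5461 it was -0.16 and -0.14. Single motifs went in different directions at 8 h of BMH-21. The medians with and without the motif were -0.61 and -0.71 for NRF1 (13 members with it) and -0.76 and -0.7 for ETS (25 members). For YY1 (8 members) they were -0.77 and -0.7, and for the E-box (5 members) -0.84 and -0.7. These differences were not tested. These matches describe letters in a window and not bound sites.

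The 21 libraries held 46604397 to 62812641 reads each, and all 77 members passed the expression filter, with 799 (Mrpl53) to 13019 reads per gene and library. Replicate libraries of a group differed by more than counting noise (chi-square per degree of freedom 2.58 to 26.0), and replicate 2 of 8 h BMH-21 stood apart, at 24.6 and 26.0 from its 2 partners against 4.93 between those. The deposited log2 values carry a scaling factor per library of 0.832 to 1.375, whose origin is not stated in the sources used here and which differs from factors computed from the genes themselves (0.941 to 1.107). On the deposited scale the median log2 change of all tested genes from the control ran from -0.40 (8 h of BMH-21) to 0.11 (8 h of CX-5461). The main counts and most medians are therefore also given after centring every library on its median over the tested genes, and some on another scale with median-ratio factors. Changes of single genes, fold levels and counts of 2-fold falls are on the deposited scale unless another is named. For counts of members called on all 3 scales the matching share of all genes was not computed. It can be no larger than the share on any single scale, and the lowest share available is given as an upper limit. The 9 embryonic stem cell markers examined were above 0 in every library, and their summed linear level was 6186 to 7053 in the control. With BMH-21 it was 5099 to 5625, 3538 to 4142 and 2938 to 3125 at 2, 4 and 8 h. With CX-5461 it was 4600 to 5472, 3605 to 4299 and 5583 to 5996, so in this sum every treated library lay below the control. Single markers did not all follow the sum, since Tdgf1 was at 9.8 to 9.95 in the control and reached 10.31 in a treated library. The marker sum of 7 fibroblast genes was 30.5 to 34.8 in the control, with Col3a1, Dcn, Lum and Postn at or below 0 in every library. It lay above the control at 4 and 8 h of BMH-21 (43.5 to 53.4 and 38.8 to 46.5) and at 8 h of CX-5461 (43.0 to 44.3). Among these 7 genes, Col1a1 was at 2.97 to 3.26 in the control and reached 5.18 in a treated library, and Col1a2 reached 1.02. Thy1 went the other way, from 4.42 to 4.54 in the control to as low as 2.93 in a treated library. The sum of 4 neural genes (control 185 to 201) was 148 to 164 and 137 to 159 at 4 h of BMH-21 and CX-5461, and 72.6 to 79.7 and 207 to 223 at 8 h. In this sum Tubb3 weighed most, at 6.05 to 7.71 on the log2 scale, while Pax6, Sox1 and Map2 were at or below 3.47. The sum of 5 primitive endoderm genes (control 8.5 to 10.2) was 7.9 to 9.3 at 8 h of BMH-21 and 11.6 to 12.1 at 8 h of CX-5461. For 3 mesoderm genes (control 2.0 to 3.0) the sum was 2.8 to 4.9 and 3.8 to 4.1 at 4 h and 4.5 to 5.1 and 3.6 to 4.2 at 8 h of BMH-21 and CX-5461. Whether these shifts had a part in the changes of the members was not tested, and in bulk samples fewer cells of a type and less RNA per cell cannot be told apart.

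In untreated cells the members spanned a wide range of levels. Per kilobase of annotated exon, on the log2 scale, Mrpl12 was highest at 7.40 ± 0.12 (SD, n = 3), followed by Mrpl2, Mrpl18 and Mrpl34 at 6.91, 6.85 and 6.82. Mrpl12 encodes the stalk protein that contacts translation factors. The lowest per kilobase were Mrpl48 at 2.32 ± 0.15, Mrpl33 at 2.57 and Mrps10 at 2.86. The length used joins the exons of all annotated transcripts of a gene, whether or not they are made in these cells. It was 8152, 7326 and 8079 bases for these genes, which lowers their values. Without division by length they were at 5.35, 5.44 and 5.88, and the lowest members were Mrpl41, Mrpl14 and Mrps6 at 4.42, 4.47 and 4.53. Together the 77 genes took 0.535% ± 0.0098 (SD, n = 3) of all reads in the control.

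The median of the 77 members in each library ran from 5.91 to 6.16 in the control and from 5.39 to 5.47 after 8 h of BMH-21, with no overlap, while after 8 h of CX-5461 it was 5.94 to 6.03, inside the control range. A measure free of the deposited scaling is the members' median minus the median of all tested genes in the same library. It was 1.58 to 1.66 in the control, 1.43 to 1.61 and 1.39 to 1.43 after 4 h of BMH-21 and CX-5461, while the difference narrowed to 1.12 to 1.30 in the 8 h BMH-21 libraries and to 1.28 to 1.33 in those of 8 h CX-5461. On this measure every 8 h library of either inhibitor lay below every control library. The members' share of all reads was 0.498% ± 0.0175 and 0.493% ± 0.0067 (SD, n = 3 each) at 4 h and 0.458% ± 0.030 and 0.496% ± 0.0052 at 8 h of BMH-21 and CX-5461. The 8 h BMH-21 replicate that stood apart had the highest share of its group, 0.493%, against 0.441% in each of the other two.

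**Figure D1:**
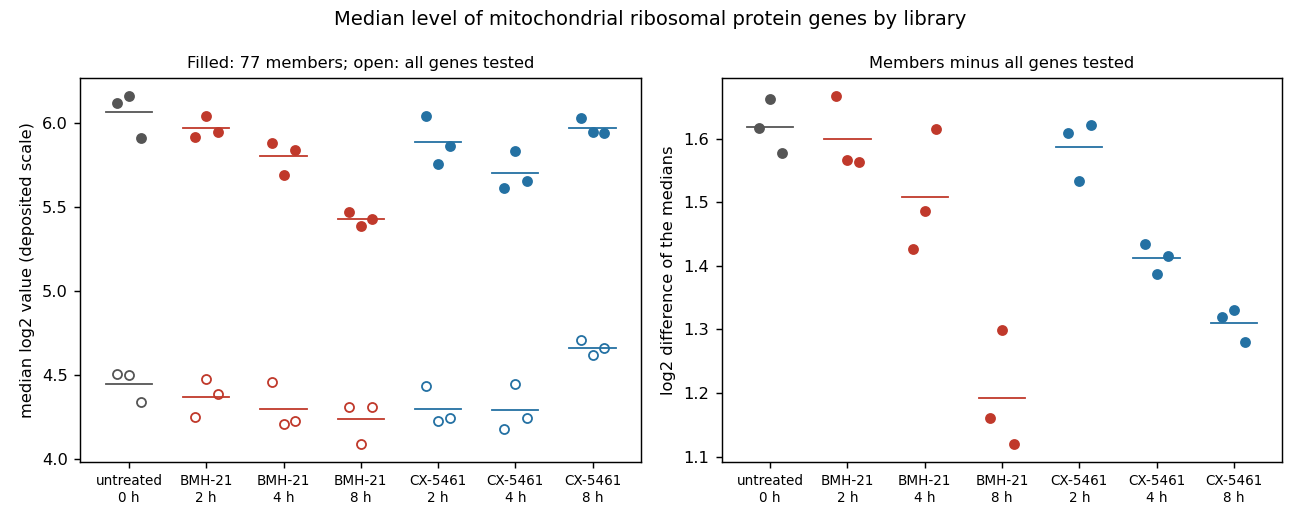
Left, median log2 value of the 77 members (filled points) and of all tested genes (open points) in each library, and right, the log2 difference of these medians, by group on the horizontal axis, with 1 point per library and a line at the group mean. After 8 h the BMH-21 libraries lie below the control on both sides, while the CX-5461 libraries lie inside the members' control range on the left and below the control on the right (1.28 to 1.33 against 1.58 to 1.66).

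At 2 h few members had moved. With BMH-21, 0 members were higher and 2 lower by the linear model in limma (adjusted p under 0.05), where 8.48% of all tested genes were higher and 11.2% lower, and the members' median change of -0.07 equalled that of all genes. At an unadjusted p under 0.05, 1 member was higher and 6 were lower, a looser cut at which at least 8.48% of all genes were higher and 11.2% lower. The 2 genes were Mrps12, which encodes a protein of the decoding centre of the small subunit, and Mrpl17, which encodes a bacterial-type protein of the large subunit. Mrps12 was at 5.94, 5.97 and 5.75 in the control libraries and at 5.53, 5.68 and 5.56 after 2 h of BMH-21, so all treated libraries were lower, by 0.30 ± 0.11 (SE) on the log2 scale (limma adjusted p = 0.039). Mrpl17 was at 7.59, 7.60 and 7.35 in the control and at 7.18, 7.31 and 7.21 at 2 h, a log2 change of -0.28 ± 0.11 (SE; limma adjusted p = 0.048). Both calls were lost, at adjusted p of 0.13 to 0.22, without control replicate 1 or 2 or without treated replicate 1 or 3, each of which left 0 members called. With a term for the replicate number, 0 members were called, and after centring 5 were higher and 6 lower, against 18.6% and 17.5% of all genes.

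After 2 h of CX-5461, 0 members were higher and 7 lower, against 7.45% and 20.5% of all tested genes, and the members' median of -0.18 again equalled that of all genes. At an unadjusted p under 0.05, 0 were higher and 19 lower, a looser cut at which at least 7.45% of all genes were higher and 20.5% lower. The falls with non-overlapping values were led by Mrpl32, whose bacterial-type product is matured by the m-AAA protease, and Mrpl50, a mitochondria-specific large-subunit gene. Mrpl32 was at 5.35, 5.26 and 5.06 in the control and at 5.01, 4.73 and 4.76 at 2 h, a log2 change of -0.39 ± 0.11 (SE; limma adjusted p = 0.0052). Mrpl50 was at 6.30, 6.30 and 6.02 against 5.95, 5.74 and 5.77, also -0.39 (adjusted p = 0.0041). In both genes every treated library was below every control library. The count of members called at this time rested on single libraries, since it was 1, 2 and 29 without control replicates 1, 2 and 3 and 22, 1 and 3 without treated replicates 1, 2 and 3. The call of Mrpl32 was lost without control replicate 1 (adjusted p = 0.063) or treated replicate 2 (adjusted p = 0.051), and that of Mrpl50 was kept in all 6 of these fits. Mrpl32, Mrpl50 and Mrps12 were lower on all 3 scales (Mrps12 by 0.36, adjusted p = 0.0092, a call lost without control replicate 1 or 2 or treated replicate 2), and after centring 2 members were higher and 4 lower, against 15.8% and 17.8% of all genes.

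At 4 h falls had become frequent with both inhibitors, among the members and among all tested genes. After 4 h of BMH-21, 2 members were higher and 43 lower, against 22.1% and 44.9% of all tested genes, with a median log2 change of -0.26 for the members and -0.21 for all genes. After 4 h of CX-5461, 1 member was higher and 67 lower, against 19.8% and 51.2%, with medians of -0.40 and -0.28. After centring the counts were 7 and 37 for BMH-21 (32.2% and 41.5% of all genes) and 2 and 57 for CX-5461 (28.5% and 45.7%). The lower share with BMH-21 was then near that of all genes. On all 3 scales 29 and 43 members were lower, where at most 41.5% and 45.7% of all genes were. For both inhibitors fewer of the members than of all genes were higher, on the deposited and the centred scale. Both inhibitors share the control libraries, so their values against the control are given side by side and not as independent results.

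The largest falls at 4 h were those of Mrps18b, Mrps12 and Mrpl17, with BMH-21 and with CX-5461. Mrps18b encodes a mitochondria-specific protein of the small subunit, and its gene lies at chr17:35910379-35916389 on the minus strand (GRCm38, GENCODE M21). Mrps18b was at 7.06, 7.04 and 6.89 in the control, at 6.01, 5.78 and 5.95 after 4 h of BMH-21 and at 5.95, 6.26 and 5.97 after 4 h of CX-5461. All 6 treated libraries were below the control, by a log2 change of -1.08 ± 0.11 (SE; limma adjusted p = 4.8e-17) and -0.93 ± 0.11 (SE; limma adjusted p = 1.1e-13). Mrps12 (chr7:28739641-28741820, minus strand) fell to 5.15, 4.84 and 5.04 with BMH-21 and to 4.98, 5.18 and 4.99 with CX-5461, and Mrpl17 (chr7:105803206-105811099, minus strand) to 6.80, 6.52 and 6.76 and to 6.63, 6.82 and 6.63. Both genes were non-overlapping with the control, with log2 changes between -0.87 and -0.82 in the 4 comparisons.

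After 8 h of BMH-21 the fall took in almost every member. Only 2 members were higher and 73 lower, against 24.5% and 56.9% of all tested genes, and the values of 72 members lay below the control with no overlap, as did 57.1% of all genes. The median log2 change was -0.71 for the members and -0.40 for all genes, and 69 of 77 members lay below the all-gene median change, where 50.0% of all genes do. On the deposited scale a fall of 2-fold or more was seen in 14 of the 77 members, a share near the 18.4% of all genes. After centring, 3 members were higher and 71 lower (33.3% and 51.3% of all genes), with a median of -0.50 against -0.19, and on median-ratio factors 3 were higher and 62 lower (39.2% and 43.3%), with a median of -0.36 against -0.04. On all 3 scales 62 members were lower, where at most 43.3% of all genes were. Mrps6 and Mrpl41 were the 2 members higher on all 3, where at most 24.5% of all genes were. Without the replicate that stood apart, 2 members were again higher and 73 lower, with a median of -0.70.

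**Figure D2:**
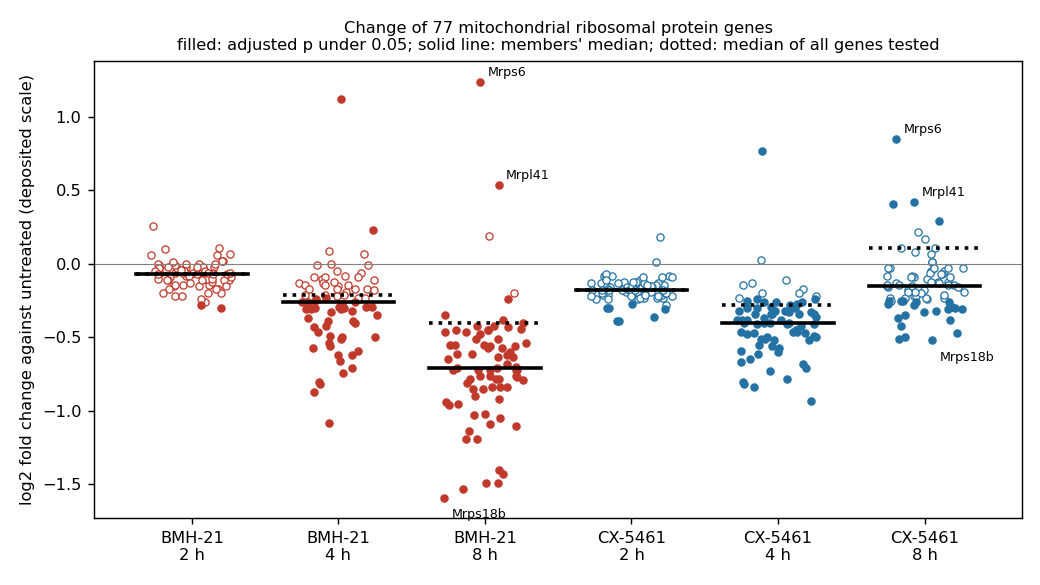
Log2 change from the control (vertical axis, deposited scale) of each of the 77 members by inhibitor and time, with filled points for an adjusted p under 0.05, a solid line at the members' median and a dotted line at the median of all tested genes. After 8 h of BMH-21 the members' median lies at -0.71 and that of all genes at -0.40, while Mrps6 and Mrpl41 lie above 0.

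The falls at 8 h of BMH-21 were spread over both subunits and both evolutionary classes. Among the bacterial-type large-subunit genes 0 were higher and 29 of 30 lower (median -0.71), and among the mitochondria-specific large-subunit genes 1 was higher and 19 of 20 lower (median -0.71). Among the bacterial-type small-subunit genes 1 was higher and 14 of 16 lower (median -0.64), and among the mitochondria-specific small-subunit genes all 10 were lower (median -0.74). These counts stand beside 24.5% of all tested genes higher and 56.9% lower, and differences between these 4 classes were not tested. The 2 members that passed the test in neither direction were Mrpl16 and Mrps21.

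Mrps18b had the largest fall, from 7.06, 7.04 and 6.89 in the control to 5.44, 5.39 and 5.37, a log2 change of -1.59 ± 0.11 (SE; limma adjusted p = 1.7e-28), which is 0.332 times the control. Mrpl12 (chr11:120484613-120489065, plus strand), the member with the highest level per kilobase, was at 8.07, 8.09 and 7.88 in the control and at 6.50, 6.51 and 6.43, or 0.346 times the control (log2 change -1.53 ± 0.10 SE; limma adjusted p = 3.4e-28). Mrpl40 (chr16:18872018-18876862, minus strand), a mitochondria-specific large-subunit gene, went from 6.59, 6.50 and 6.38 to 5.04, 4.93 and 5.04, a log2 change of -1.49 ± 0.11 (SE; limma adjusted p = 7.5e-26). In each of these 3 genes the treated libraries lay closer together than the control libraries did, and more than 1 log2 unit below the lowest of them.

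Mrps12, of the decoding centre, stood at 4.42, 4.41 and 4.38 (log2 change -1.49), and Mrpl17 at 6.12, 6.09 and 6.03 (log2 change -1.43). Mrpl15 (chr1:4773206-4785739, minus strand), which encodes a bacterial-type large-subunit protein, was at 7.99, 7.90 and 7.73 in the control and at 6.51, 6.45 and 6.46 at 8 h, 0.380 times the control (log2 change -1.40 ± 0.10 SE; limma adjusted p = 8.5e-25). These 3 genes also had no overlap with the control. Further falls of more than 1 log2 unit, named after their values were seen, were those of Mrpl36 (-1.19), Mrps27 (-1.19), Mrps30 (-1.14), Mrpl18 (-1.10), Mrps10 (-1.09), Mrpl49 (-1.05), Mrps16 (-1.03) and Mrpl57 (-1.02).

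The family has 3 genes related to bacterial ribosomal protein S18, and they differed in the size of their fall at 8 h of BMH-21. Mrps18b fell by 1.59 on the log2 scale, Mrps18a, whose product sits in the large subunit, by 0.84 (limma adjusted p = 1.1e-11) and Mrps18c by 0.56 (adjusted p = 3.4e-06). Mrps18a was at 5.65, 5.67 and 5.40 in the control and 4.72, 4.73 and 4.75 at 8 h, and Mrps18c was at 5.64, 5.71 and 5.34 and then 4.99, 5.01 and 5.01. Neither gene overlapped with the control, and the difference between the 3 falls was not tested. Mrps30, a second Mrps symbol whose product is in the large subunit, went from 6.74, 6.75 and 6.47 to 5.61, 5.42 and 5.51 (log2 change -1.14 ± 0.11 SE; limma adjusted p = 2.1e-18). Mrps36, the gene with a role outside the ribosome, went from 5.12, 4.79 and 4.85 to 4.40, 4.27 and 4.39, a smaller log2 change of -0.57 ± 0.11 (SE; limma adjusted p = 3.4e-06).

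**Figure D3:**
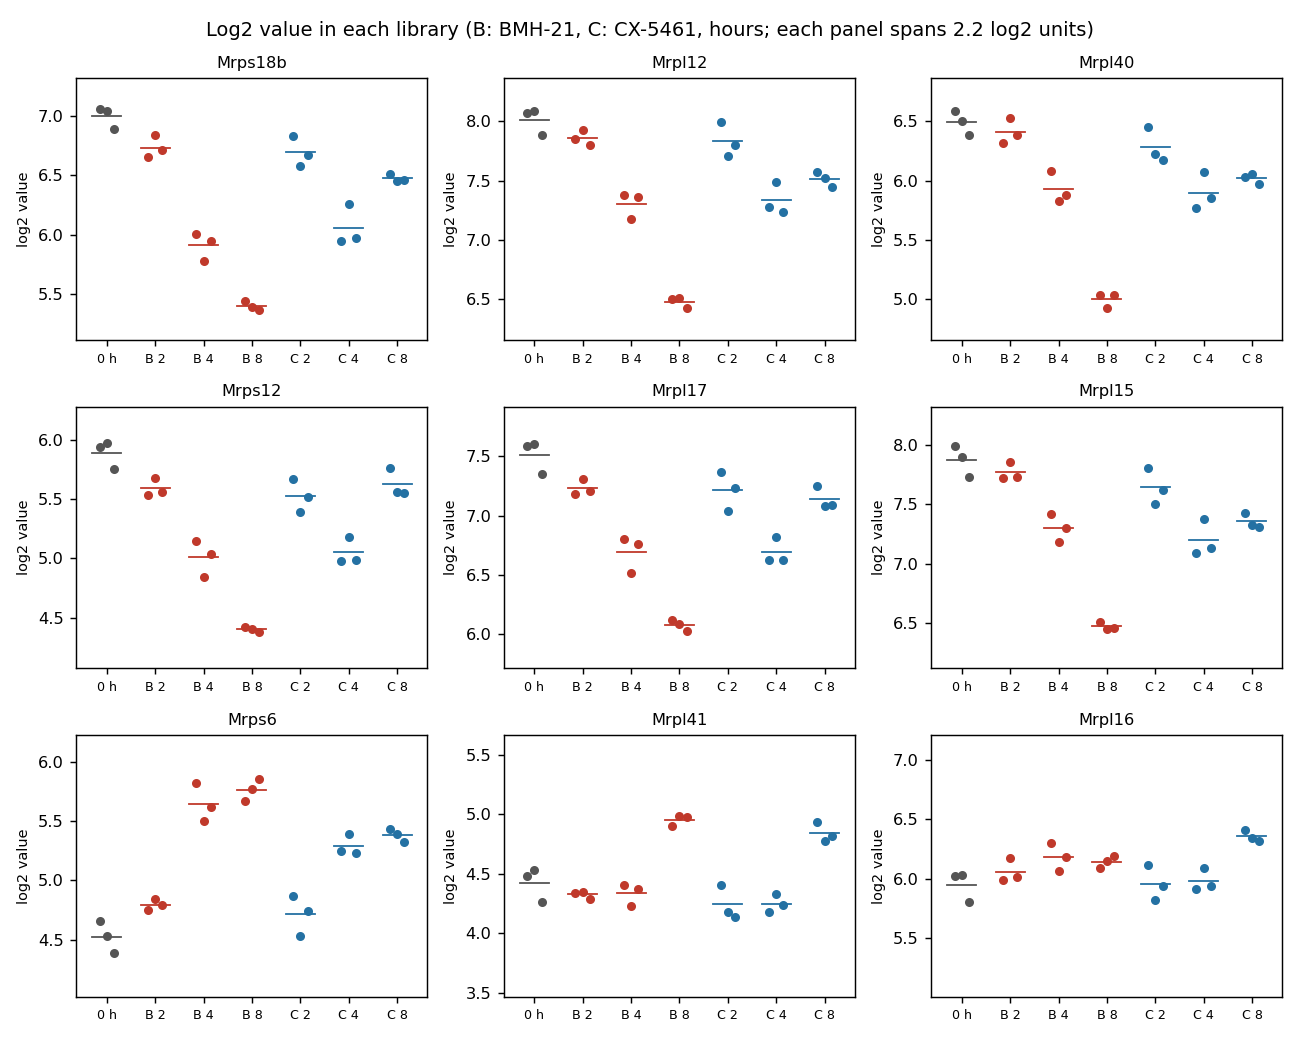
Log2 value (vertical axis, deposited scale) of 9 members in every library, by group on the horizontal axis (0 h control, B for BMH-21 and C for CX-5461, in hours), with 1 point per library and a line at the group mean. Mrps18b, Mrpl12 and Mrps12 are lowest after 8 h of BMH-21, while Mrps6 lies above the control at 4 and 8 h of either inhibitor.

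With CX-5461 at 8 h the number of members called depended on the scale. On the deposited scale 4 members were higher and 21 lower, against 35.1% and 14.3% of all tested genes, with a median of -0.15 for the members and 0.11 for all genes. After centring 3 were higher and 69 lower, against 29.3% and 44.7%, with medians of -0.37 and -0.11, and on median-ratio factors 4 were higher and 63 lower (35.2% and 35.3%), with medians of -0.27 and -0.01. On all 3 scales 21 members were lower and 3 higher, where at most 14.3% and 29.3% of all genes were. The position relative to all genes does not depend on the scale: 69 of 77 members lay below the all-gene median change. By the limma test 0 members fell 2-fold or more on the deposited scale, against 0.511% of all genes. The count of 25 members called was 13 without control replicate 1 or 2 and 15 without CX-5461 replicate 2 or 3.

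The largest falls with CX-5461 at 8 h were those of Mrps18b, Mrpl15 and Mrpl12. Mrps18b was at 6.51, 6.45 and 6.46, a log2 change of -0.52 ± 0.11 (SE; limma adjusted p = 1.4e-05; -0.74 after centring). Mrpl15 was at 7.43, 7.33 and 7.31 (log2 change -0.51, adjusted p = 1.4e-05) and Mrpl12 at 7.57, 7.52 and 7.45 (log2 change -0.50, adjusted p = 2.1e-05). All 9 of these values lay below the lowest control value of their gene. Mrps12 was at 5.76, 5.56 and 5.55, with 1 library above the lowest control value of 5.75, and its call (log2 change -0.26, limma adjusted p = 0.038) was lost without control replicate 1 or 2 or CX-5461 replicate 2 or 3 (adjusted p of 0.13 to 0.15). Among the large-subunit genes, 12 of 30 bacterial-type and 4 of 20 mitochondria-specific ones were lower. Among those of the small subunit 2 of 16 and 3 of 10 were. After centring 27, 19, 14 and 8 of these classes were lower. These counts stand beside 14.3% of all tested genes lower on the deposited scale and 44.7% after centring. The 2 of 16 on the deposited scale were near the share of all genes. In the same comparison Mrps30 was lower (log2 change -0.42, limma adjusted p = 5.0e-04), while Mrps18a, Mrps18c and Mrps36 stood at -0.09, -0.05 and -0.13 with adjusted p of 0.52, 0.75 and 0.37.

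Few members went up. Mrps6 (chr16:92058270-92112227, plus strand), which encodes a bacterial-type small-subunit protein, was at 4.66, 4.53 and 4.39 in the control, at 5.82, 5.50 and 5.62 after 4 h of BMH-21 and at 5.67, 5.77 and 5.85 after 8 h. The 8 h values were 2.36 times the control (log2 change 1.24 ± 0.11 SE; limma adjusted p = 7.0e-20). With CX-5461 it was at 5.25, 5.39 and 5.23 after 4 h and at 5.43, 5.39 and 5.32 after 8 h (log2 change 0.85 ± 0.11 SE at 8 h; limma adjusted p = 2.6e-11). At 4 and 8 h every treated library was above every control library, and the call held on all 3 scales. The annotated exons of Mrps6 share 159 bases, 10.4% of its exon length, with Slc5a3, a myo-inositol transporter gene on the same strand, so reads of the 2 genes may be split uncertainly. Slc5a3 also rose, from 2.27 ± 0.19 in the control to 4.05 ± 0.14 at 4 h and 3.65 ± 0.36 at 8 h with BMH-21, and with CX-5461 to 4.03 ± 0.21 at 4 h and 2.94 ± 0.25 at 8 h (SD, n = 3 each, log2), and its part in the rise of Mrps6 was not tested.

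Mrpl41 (chr2:24974117-24975098, minus strand), a mitochondria-specific large-subunit gene, was high only at the last time. It was at 4.48, 4.53 and 4.26 in the control, at 4.41, 4.23 and 4.37 after 4 h of BMH-21, and at 4.90, 4.99 and 4.98 after 8 h, a log2 change of 0.54 ± 0.11 (SE; limma adjusted p = 7.5e-06). After 8 h of CX-5461 it was at 4.94, 4.78 and 4.82 (log2 change 0.42 ± 0.11 SE; limma adjusted p = 7.8e-04; 0.21 after centring, adjusted p = 0.011). All 6 of the 8 h libraries were above all control libraries, and the calls held on all 3 scales.

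Mrpl16 (chr19:11770391-11774960, plus strand), which encodes a bacterial-type large-subunit protein, depended more on the scale. It was at 6.02, 6.03 and 5.80 in the control, at 6.30, 6.06 and 6.18 after 4 h of BMH-21, at 6.09, 6.15 and 6.19 after 8 h of BMH-21 and at 6.41, 6.34 and 6.32 after 8 h of CX-5461. The rise with CX-5461 at 8 h was 0.41 ± 0.11 (SE) on the log2 scale (limma adjusted p = 6.8e-04; 0.19 after centring). With BMH-21 the log2 change at 4 h was 0.23 (adjusted p = 0.047), a call lost without control replicate 1 or 3 or treated replicate 1 or 3 (adjusted p of 0.051 to 0.21) and with the replicate number in the model, and at 8 h it was 0.19 (adjusted p = 0.087; 0.41 and 2.1e-07 after centring). Neither Mrpl41 nor Mrpl16 shares exon bases with another gene of the table. Mrpl14, which encodes a protein at the subunit interface, was the fourth member called higher after 8 h of CX-5461 (4.84, 4.70 and 4.73 against 4.61, 4.46 and 4.34, log2 change 0.29, limma adjusted p = 0.024), and after centring its change was 0.07 (adjusted p = 0.39).

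**Figure D4:**
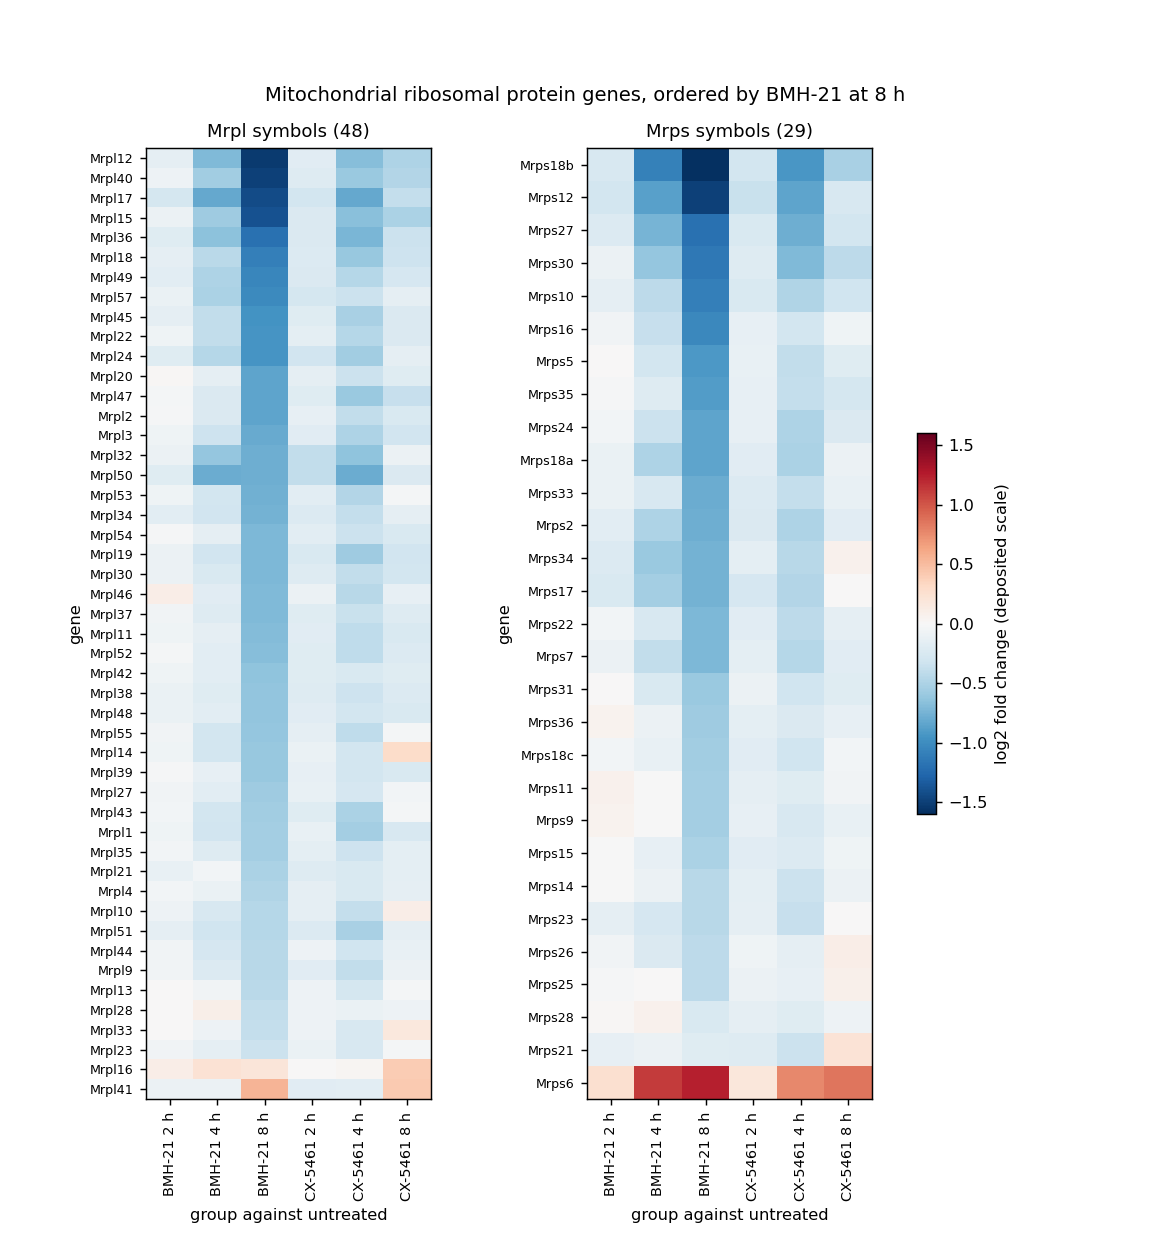
Log2 change from the control (colour, deposited scale, red higher and blue lower) of the 48 Mrpl genes (left) and the 29 Mrps genes (right) in rows, for the 6 treated groups in columns, with rows ordered by the change after 8 h of BMH-21. The column of 8 h of BMH-21 is blue for nearly every gene, and Mrpl41, Mrpl16 and Mrps6 form the end of the order.

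Direct comparisons of the 2 inhibitors at the same dose and time do not use the control. At 2 h the limma test called 0 members (2.47% of all tested genes higher and 1.52% lower with BMH-21). At an unadjusted p under 0.05, 3 members were higher and 0 lower, a looser cut that at least 2.47% and 1.52% of all genes passed. After centring 3 were higher and 0 lower, against 7.83% and 7.58% of all genes. At 4 h 2 members, Mrpl47 and Mrps6, were higher with BMH-21 and 0 lower, against 9.35% and 8.49% of all genes. At an unadjusted p under 0.05 the counts were 11 and 0, a looser cut that at least 9.35% and 8.49% of all genes passed. Mrpl47 encodes the counterpart of bacterial L29 at the exit of the peptide tunnel, and it was at 5.79, 5.47 and 5.63 with BMH-21 and at 5.17, 5.47 and 5.14 with CX-5461, a log2 difference of 0.37 ± 0.11 (SE; limma adjusted p = 0.01). The exons of Mrpl47 share 452 bases with Actl6a and 616 with Ndufb5, both on the opposite strand, so its reads are uncertain if strand was not used in counting. With BMH-21 the means of both neighbours at 4 h were also above those with CX-5461, Actl6a at 8.08 ± 0.13 against 7.80 ± 0.12 and Ndufb5 at 6.21 ± 0.10 against 5.99 ± 0.12 (SD, n = 3 each, log2), and their part in the difference of Mrpl47 was not tested. For Mrps6 the log2 difference at 4 h was 0.35 ± 0.11 (SE; limma adjusted p = 0.014). Both were called on all 3 scales, and both calls were lost without BMH-21 replicate 1 or CX-5461 replicate 1 or 3, which left 0 members called. The count was 5 without BMH-21 replicate 2 and 10 without CX-5461 replicate 2. After centring 33 members were higher with BMH-21 and 2 lower at 4 h, against 27.4% and 18.5% of all genes.

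At 8 h 1 member, Mrps6, was higher with BMH-21 than with CX-5461 and 73 were lower, against 12.0% and 67.2% of all tested genes. The median difference was -0.53 for the members and -0.48 for all genes. Without the BMH-21 replicate that stood apart, 1 member was higher and 72 were lower. After centring 6 members were higher and 37 lower (31.1% and 40.6% of all genes), with medians of -0.11 and -0.06, so that fewer of the members than of all genes were higher. On all 3 scales 31 members were lower, where at most 40.6% of all genes were. The largest differences were those of Mrps12 (-1.22 ± 0.11 SE, limma adjusted p = 4.3e-19; -0.80 after centring), Mrps18b (-1.07, adjusted p = 1.4e-16; -0.64 after centring) and Mrpl17 (-1.06, adjusted p = 2.1e-16; -0.63 after centring). In all 3 genes the 3 BMH-21 libraries lay below the 3 CX-5461 libraries. Mrps6 was 0.38 ± 0.11 (SE) higher with BMH-21 (adjusted p = 0.0011), whereas Mrpl41 differed by 0.11 with a 95% interval of -0.11 to 0.33 (adjusted p = 0.34), and by 0.54 after centring (adjusted p = 3.0e-07).

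The change from 4 to 8 h compares libraries that neither inhibitor shares with the other. With BMH-21 the members kept falling: 1 was higher and 61 lower at 8 h than at 4 h, against 18.6% and 37.8% of all tested genes, with medians of -0.46 and -0.14, and 71 of 77 lay below the all-gene median change. After centring 3 were higher and 67 lower (28.3% and 42.2%), and without the replicate that stood apart 1 was higher and 60 lower. The largest falls were those of Mrpl40 (-0.92 ± 0.11 SE, limma adjusted p = 7.5e-13), Mrpl15 (-0.83, adjusted p = 2.4e-11) and Mrpl12 (-0.82, adjusted p = 1.5e-11), each with all 8 h libraries below all 4 h libraries. Mrpl41 was the member that rose (0.62 ± 0.11 SE, limma adjusted p = 8.2e-07).

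With CX-5461 the direction from 4 to 8 h depended on the scale. On the deposited scale 39 members were higher at 8 h and 0 lower, against 58.8% and 4.85% of all tested genes, with medians of 0.24 for the members and 0.34 for all genes. At an unadjusted p under 0.05, 44 were higher and 0 lower, a looser cut that at least 58.8% and 4.85% of all genes passed. The count of 39 was 23 without replicate 1 and 24 without replicate 3 of the 4 h group. After centring 8 were higher and 36 lower (25.8% and 32.0%), with medians of -0.13 and -0.04, and 55 of 77 members lay below the all-gene median change. On all 3 scales 8 members were higher, where at most 25.8% of all genes were. They were Mrpl10, Mrpl14, Mrpl32, Mrpl41, Mrpl50, Mrps12, Mrps27 and Mrps34. Mrpl41 (4.18, 4.33 and 4.24 at 4 h and 4.94, 4.78 and 4.82 at 8 h) and Mrpl14 (4.13, 4.25 and 4.12, then 4.84, 4.70 and 4.73) each rose by 0.59 ± 0.11 (SE; limma adjusted p = 2.5e-06 and 3.3e-06; 0.22 and 0.21 after centring). Mrps12, one of the largest falls at 4 h, rose by 0.57 ± 0.11 (SE; limma adjusted p = 3.7e-06; 0.20 after centring). Across the 77 members the 4 to 8 h changes of the 2 inhibitors had a Pearson r of 0.47 and a Spearman rho of 0.41, and across all tested genes 0.25 and 0.25, given as a description since genes of 1 library share its depth.

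Members with a higher control level had the larger falls, as a description over the 77 genes. Pearson r between the control log2 level and the change was -0.49 (Spearman rho -0.35) after 8 h of BMH-21 and -0.58 (rho -0.52) after 8 h of CX-5461, with the control libraries entering both axes. With exon length r was -0.13 and -0.21. Exon bases were shared with another gene of the table by 22 members, of which 3 on the same strand (Mrps6 with Slc5a3, Mrps34 with Nme3 and Mrps24 with Urgcp), and whether the counting used strand is not stated. Of these 22, 21 were lower after 8 h of BMH-21 with a median of -0.67, and of the 55 others 52 were lower with a median of -0.72, beside 56.9% of all tested genes. Some members also shared exon bases with annotated genes that have no row in the table. Mrps18b shared 638 bases with Gm16279 and Mrpl12 200 with Gm16755, both on the opposite strand. Mrpl53 shared 695 with Gm42688 and Mrps6 305 with Gm49711, both on the same strand. The part of these overlaps was not tested.

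Genes that work with the mitochondrial ribosome were also mostly lower after 8 h of BMH-21. These lists were chosen with earlier results of these data known, and their counts stand beside 24.5% of all tested genes higher and 56.9% lower (33.3% and 51.3% after centring). Of 6 mitochondrial ribosomal protein genes with other symbols all 6 were lower on the deposited and the centred scale (median -0.93), from Gadd45gip1 at -1.56 to Aurkaip1 at -0.61, with Ict1, the rescue factor also named Mrpl58, at -1.11. Of 26 assembly factor genes 23 were lower (median -0.72; 22 after centring), from Gtpbp6 at -1.28 to Noa1 at -0.07. Of 16 mitochondrial translation factor genes 13 were lower and 1 higher (median -0.68; 12 and 3 after centring), the higher one being Taco1, a translational activator of a cytochrome oxidase subunit, at 0.78. Of 13 genes for mitochondrial transcription and replication 12 were lower and 1 higher on both scales, from the single-strand binding protein gene Ssbp1 at -1.36 to the topoisomerase gene Top1mt at 1.08. Of 10 regulators of such nuclear genes 8 were lower on both scales, among them Pprc1 (-1.72), Myc (-1.57), Nrf1 (-1.56) and Gabpa (-1.36), and Esrra was higher at 0.26. Genes encoded by mitochondrial DNA were not analysed here.

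After 8 h of CX-5461 the counts of these lists depended on the scale. On the deposited scale 4 of the 6 other ribosomal genes, 4 of 26 assembly genes, 2 of 16 translation factor genes, 1 of 13 transcription and replication genes and 5 of 10 regulators were lower, beside 14.3% of all tested genes, so that the assembly and translation factor genes were near the share of all genes. After centring 6, 22, 14, 12 and 8 were, beside 44.7% of all genes. Taco1 and Top1mt were the genes that were again higher, at 0.54 and 0.91, and Pprc1 had the largest fall among the regulators, at -0.61.

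Other gene families that supply ribosomes and respiration had smaller median falls than the mitochondrial ribosomal genes after 8 h of BMH-21. The cytosolic ribosomal protein genes had a median change of -0.49, with 0 of 81 higher and 76 lower (0 and 71 after centring, 3 and 43 on median-ratio factors). The nuclear genes of oxidative phosphorylation, whose products assemble with the proteins the mitochondrial ribosome makes, had a median of -0.35, with 2 of 73 higher and 54 lower (8 and 35 after centring). All tested genes had a median of -0.40, with 56.9% lower (51.3% after centring and 43.3% on median-ratio factors), so that after centring the lower share of the oxidative phosphorylation genes was near that of all genes. On median-ratio factors 18 of the oxidative phosphorylation genes were higher and 18 lower, with a median of 0.01. After 8 h of CX-5461 the medians of the 2 families were -0.08 and 0.00 against -0.15 for the mitochondrial ribosomal genes. Differences between the lists were not tested.

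**Figure D5:**
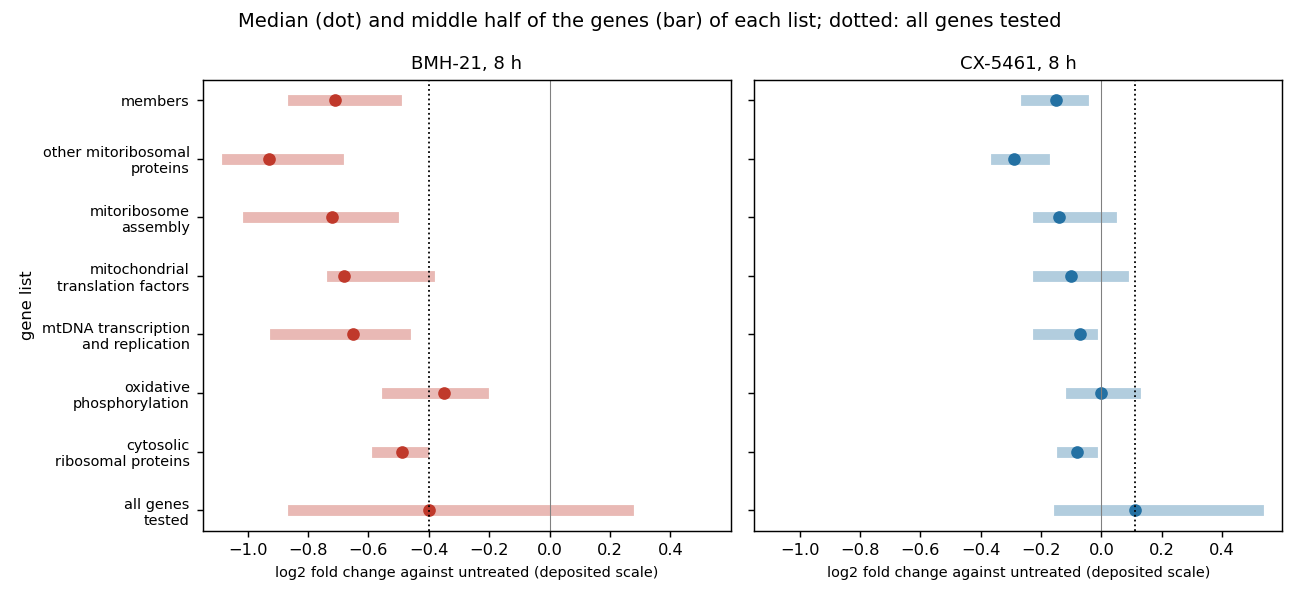
Median log2 change (dot, deposited scale) and its middle range from the lower to the upper quartile of genes (bar) for the 77 members and the other lists of genes, after 8 h of BMH-21 (left) and CX-5461 (right), with a dotted line at the median of all tested genes. With BMH-21 the medians run from -0.93 for the mitochondrial ribosomal genes with other symbols to -0.35 for oxidative phosphorylation, with the members at -0.71.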

How the data were processed

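The deposited table holds log2 expression values of 20900 genes in 21 poly(A) RNA-seq libraries, normalized with voom by the authors, per the name of the deposited table. The submitters' processing notes list Trim Galore 0.5.0, TopHat2 2.1.1, R 4.0.5, DESeq2 1.30.1, edgeR 3.32.1, limma 3.46.0 and the mm10 build, with no role given for each; the counting program and the annotation are not given in the sources used here. Every deposited log2 value gave a whole number of reads plus the voom offset of 0.5 to within 1.7e-08, and the value is relative to an effective library size with a factor of unstated origin. The 21 libraries held 46604397 to 62812641 reads, which cannot be separated into molecules and PCR copies.

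Groups came from the sample titles, and 0 columns were left unmapped. The 14666 genes with a log2 value above 0 in at least 3 libraries were fitted in limma 3.58.1 (R 4.3.3) with 1 mean per group over all 21 libraries and eBayes with a trend, with two-sided tests and Benjamini-Hochberg adjustment over all tested genes at 0.05; 6234 genes were set aside. There were 11 comparisons: 6 with the control, 3 between inhibitors and 8 h with 4 h within each. Each gene's variance was drawn towards a prior worth 111.5 degrees of freedom, with 14 from the replicates (8.5 against 14 after centring), and 0 members had an own variance over 2 times the moderated one. Standard errors are on the log2 scale with the 0.5 offset.

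The members and gene lists were chosen with earlier results of these data known. Members named were Mrpl15, Mrpl12, Mrps12, Mrps30, Mrps36 and the 3 Mrps18 genes, plus up to 3 rises and 3 falls per comparison with an adjusted p under 0.05 and no overlap. Mrpl58 has no row of that symbol and is listed as Ict1. In simulated data with 200 changed genes among the 14666, for 8 h of BMH-21 against the control, 171 were recovered with 2.29% false calls. The simulated noise was independent between genes. It therefore gives no false-call rate for shifts that all genes of a library share, such as those of the deposited scaling. Same-numbered replicates of the groups compared deviated with a correlation of -0.251 to 0.093, and in 0 of 11 comparisons did all 3 exceed 0.1. Alternatives were centring, median-ratio factors, voom weights, no filter or one at log2 above 2, an offset of 5 reads, a replicate block and leaving out each library. Gene positions are from GENCODE M21 and promoters from RefSeq, both GRCm38.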

Additional observations from a re-analysis of the deposited data

Results flagged for a closer look

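These members differed between the 2 inhibitors at the same time by the limma test of the difference itself. At 4 h Mrpl47 was 0.37 and Mrps6 0.35 higher with BMH-21 than with CX-5461 on the log2 scale, and each call was lost in 3 of 6 fits that left out 1 library. At 8 h Mrps6 was 0.38 higher with BMH-21. At 8 h Mrps12, Mrps18b and Mrpl17 were lower with BMH-21, by log2 differences of -1.22, -1.07 and -1.06, and these were kept in all 6 fits that left out 1 library. All of these members were also called after centring, in the same direction.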

How the results depend on the processing

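The scale was the main limit. Centring and median-ratio factors respectively gave 11 and 11 members called at 2 h of BMH-21 (1 with no filter and 0 with the replicate block), 72 and 67 at 8 h of CX-5461, and 3 and 1, 35 and 17, and 43 and 42 between the inhibitors at 2, 4 and 8 h; median-ratio factors gave 45 at 4 h of CX-5461. The members' medians on these 2 scales were 0.01 and 0.01, -0.11 and -0.08, and -0.50 and -0.36 at 2, 4 and 8 h of BMH-21, -0.03 and 0.00, -0.24 and -0.15, and -0.37 and -0.27 for CX-5461, -0.11 and -0.06 for the inhibitors at 8 h, -0.13 and -0.12 for 8 h against 4 h of CX-5461, and -0.28 on median-ratio factors for 8 h against 4 h of BMH-21. The sign thus turned at 2 h of BMH-21 and between 4 and 8 h of CX-5461. Single genes that turned sign, all with small changes, were Mrps18c (0.03 and 0.04 at 2 h of BMH-21, 0.02 and 0.06 at 4 h) and Mrps36 (0.06 and 0.10 at 4 h of BMH-21), and on median-ratio factors Mrpl12 (0.00), Mrps36 (0.02), Mrps18a (0.01) and Mrps18c (0.00) at 2 h and Mrps36 (0.02) at 4 h of CX-5461. The cause was not tested.

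Leaving out 1 library gave 0 to 3, 30 to 55 and 74 to 76 members called at 2, 4 and 8 h of BMH-21, 1 to 29, 56 to 72 and 13 to 34 for CX-5461, 0 to 0, 0 to 10 and 73 to 74 between inhibitors, and 57 to 66 and 23 to 53 for 8 h against 4 h of BMH-21 and CX-5461. The medians ran from -0.15 to -0.02, -0.33 to -0.19 and -0.80 to -0.65 for BMH-21, -0.26 to -0.11, -0.47 to -0.34 and -0.23 to -0.12 for CX-5461, 0.04 to 0.17, 0.07 to 0.20 and -0.56 to -0.50 between inhibitors, and -0.53 to -0.39 and 0.20 to 0.31 for 8 h against 4 h. Under these fits Mrps18c ran from -0.16 to 0.03 at 2 h of BMH-21 and from -0.16 to 0.03 at 8 h of CX-5461, and Mrps36 from -0.00 to 0.17 at 2 h and from -0.18 to 0.02 at 4 h of BMH-21. The replicate block ended the calls of Mrps12 and Mrpl17 at 2 h and of Mrpl16 at 4 h of BMH-21 and changed no other call of a named member; the numbers do not pair the libraries. Voom weights, the stricter filter and the larger offset left every count of members within 1.5 times.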
